A study of Mus musculus with 2 samples.

Results

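MEL cells carried transcripts annotated as targets of nonsense-mediated decay (NMD) in many of their expressed genes. The set described here was chosen by 2 criteria. A transcript had to be of type nonsense_mediated_decay in the GENCODE M21 annotation of mm10, matched by its Ensembl transcript identifier with the version removed. Its gene had to be protein-coding and to hold an expected count, the number of reads estimated to come from it, of at least 200 in both libraries. This gave 2640 transcripts in 1629 genes. The tables held 4687 transcripts of this type among 103639 with an Ensembl identifier, and 7128 protein-coding genes reached 200 counts in both libraries. Because genes were selected on their counts and transcripts on their annotated stop codon, neither gene level nor the presence of an early stop codon is a finding.

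MEL is a mouse erythroleukemia line, blocked at the red cell precursor stage, that starts to make hemoglobin in dimethyl sulfoxide (DMSO). Polyadenylated RNA was sequenced from MEL cells after 5 days in 2% DMSO, as 1 group of 2 libraries that the labels number as biological replicates 1 and 2. Both carry the same cell sample identifier, so separate cultures are not established, and the spread between the libraries may be technical. Untreated cells were not analysed here, so values describe treated cells alone and no groups were compared. The libraries held 26149725 estimated reads in replicate 1 and 14149299 in replicate 2. The 9 erythroid markers checked all reached 1 TPM (a level scaled for transcript length and library) in both libraries. None of the 13 markers of granulocytes and macrophages, lymphocytes or fibroblasts did so. The 3 megakaryocyte markers also passed 1 TPM, with summed levels of 91.4 and 181 TPM. In a bulk sample, an NMD transcript held at a low level by all cells and one held at a high level by few cells cannot be told apart.

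NMD is the pathway by which cells remove messenger RNAs whose stop codon lies well upstream of the last exon junction. The exon junction complex, left behind at each junction by splicing, marks such a stop as premature when translation ends before it. Skipped exons, alternative splice sites, extra exons and introns kept in the coding frame all create such stops. Many RNA-binding proteins of splicing limit their own amount in this way, by promoting a form of their own messenger RNA that is degraded. A level measured in polyadenylated RNA reflects what remains after synthesis and decay, and does not measure either.

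Each member was set beside the leading coding transcript of its gene, the protein_coding transcript with the highest mean TPM. Junction sequences of 8 members with many reads are shown because no other transcript of the gene matched to M21 holds them. For each member the 15 bases before its own junction are in lower case and the 15 bases after it in capitals, with the matching junction of the leading coding transcript on the next line. All are read 5′ to 3′ on the strand of the gene, from the GENCODE M21 transcript sequences of mm10.
Eef1b2-206: gagctacattgagggAAAAGGCCAGCCTGC
Eef1b2-209 (leading): gagctacattgagggCCTGCCGGGAGTGAA
Ssb-203: cacaaaacatttaagGGAAGATTACTTTGC
Ssb-201 (leading): cacaaaacatttaagGGGTCAATATTTGCT
Smc1a-206: gacccaatggctctgGGTGCAGTGGAGTCT
Smc1a-201 (leading): gacccaatggctctgGTAAGTCAAATCTCA
Ppia-201: ctccttcgaggtcggCTGTTTGCAGACAAA
Ppia-202 (leading): cgcgtctccttcgagCTGTTTGCAGACAAA
Pfn1-204: ttcgttagcattacgGCAAAGACCGGTCAA
Pfn1-201 (leading): ttcgttagcattacgCCAGCTGAGGTTGGT
Syncrip-203: attccgtttattcagATATTTGTGGGGAAG
Syncrip-209 (leading): tctgttggcactgagATATTTGTGGGGAAG
Ermap-201: gagcaagcgatggagAAAATCTTCTGGAAG
Ermap-206 (leading): aagcgatggaggtagAAAATCTTCTGGAAG
Rps19-205: tctacacacgagctgGCTTTGGCATGGGCA
Rps19-210 (leading): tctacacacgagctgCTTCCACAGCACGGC

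These junctions fall into 3 kinds, with positions given as the exon bases on either side. Ssb-203 skipped 1 exon of Ssb-201, joining chr2:69867379-69868779 on the plus strand, and Smc1a-206 skipped 2 exons of Smc1a-201, joining chrX:152016640-152026238 on the plus strand. Other members used a nearby splice site of the same exon. The donor site lay 5 bases downstream of that of the leading transcript in Ppia-201 (chr11:6415984-6418101, plus strand), 26 bases upstream in Syncrip-203 (chr9:88476965-88477100, minus strand) and 4 bases upstream in Ermap-201 (chr4:119182875-119183310, minus strand). The acceptor site of Pfn1-204 lay 25 bases further downstream (chr11:70652954-70654349, minus strand). Eef1b2-206 and Rps19-205 instead joined the shared donor to a position inside the intron of the leading transcript, at chr1:63177291-63177867 and chr7:24885552-24886107, both on the plus strand.

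The reading frame of these 8 members ended 27 to 75 bases after the junction. The coding bases of the exon that holds the stop codon, from the start of the exon to the stop codon in capitals, are given for 7 members because they show where reading stops in RNA that the leading transcript lacks or reads in another frame.
Ssb-203: ggaagattactttgcaaaaaaaaaTGA
Smc1a-206: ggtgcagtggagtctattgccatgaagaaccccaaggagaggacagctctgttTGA
Eef1b2-206: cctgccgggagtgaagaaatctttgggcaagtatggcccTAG
Pfn1-204: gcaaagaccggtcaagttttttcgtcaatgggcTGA
Emd-206: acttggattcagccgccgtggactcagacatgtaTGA
Rps19-205: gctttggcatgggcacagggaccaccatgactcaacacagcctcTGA
Atp5f1-203: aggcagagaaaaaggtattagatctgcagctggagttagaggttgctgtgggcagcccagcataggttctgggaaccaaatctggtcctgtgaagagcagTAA
The first 5 lie in coding exons of the leading transcript and are read in another frame there (Ssb-203, chr2:69868779-69868805; Smc1a-206, chrX:152026238-152026293; Eef1b2-206, chr1:63178439-63178480; Pfn1-204, chr11:70652919-70652954 on the minus strand; Emd-206, chrX:74255453-74255489; the others on the plus strand). The stretches of Rps19-205 (chr7:24886107-24886153, plus strand) and Atp5f1-203 (chr3:105957934-105958036, minus strand) lie in exons of 81 and 167 bases that the leading coding transcript does not hold. The bases from the stop codon to the last exon junction numbered 578 in Ssb-203, 1444 in Smc1a-206, 152 in Eef1b2-206, 132 in Pfn1-204, 222 in Emd-206, 273 in Rps19-205 and 680 in Atp5f1-203.

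Summed over the 1629 genes, NMD transcripts held 17.4% of TPM in replicate 1 and 19.2% in replicate 2 (18.3% ± 1.30, SD, n = 2). By expected count, which does not weigh short transcripts up, they held 13.2% and 13.8% (13.5% ± 0.427, SD, n = 2). The share by TPM was thus above the share by count in both libraries. Protein_coding transcripts of the same genes held 56.2% ± 1.98 of TPM and 73.4% ± 0.309 of counts (SD, n = 2). Transcripts with a retained intron held 16.6% ± 1.03 of TPM and 9.20% ± 0.535 of counts, and processed transcripts without a coding frame 8.32% ± 1.54 and 3.47% ± 0.413. In these genes, which were chosen because they hold an NMD transcript, NMD transcripts were therefore second to coding ones by count. By TPM they could not be set apart from retained-intron transcripts in replicate 1, where the values were 17.4% and 17.3%. Over all 7128 genes at the count minimum, the NMD share was 2.42% ± 0.0766 of TPM and 2.41% ± 0.0911 of counts. There retained-intron transcripts held 10.2% of TPM and 5.91% of counts, and processed transcripts 6.52% and 3.39%. NMD transcripts thus ranked below both over all genes, and their order in the 1629 genes depends on how these were chosen.

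**Figure D1:**
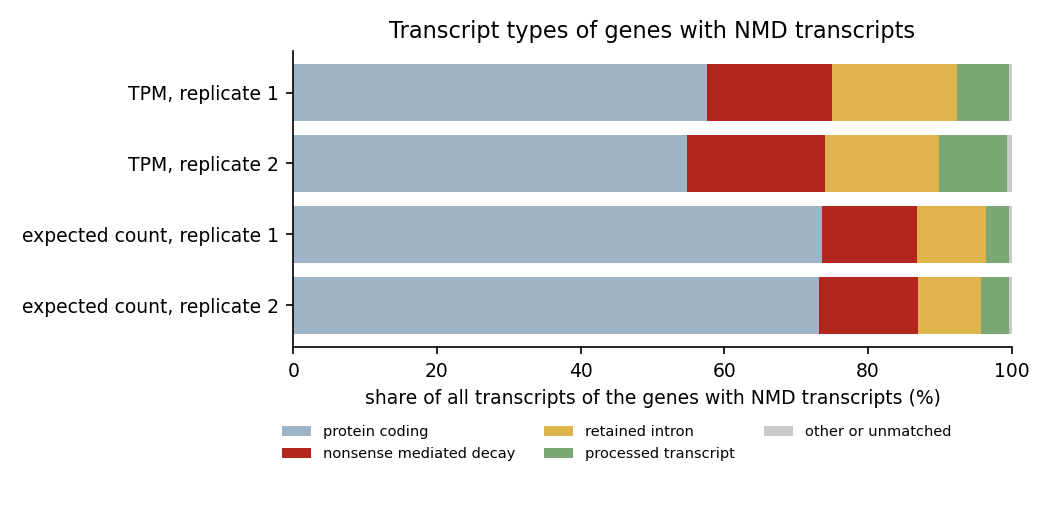
Share of each transcript type, in percent, over the 1629 genes with NMD transcripts, by TPM and by expected count in each library. NMD transcripts (red) hold 17.4% and 19.2% of TPM and 13.2% and 13.8% of counts in replicates 1 and 2.

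The reads were spread unevenly over the members. Of 2640, 845 held at least 10 expected counts in both libraries, 581 at least 50 and 42 at least 1000. Another 931 held no reads in either library, 350 held reads in replicate 1 alone and 302 in replicate 2 alone. The 10 highest members held 26.1% of all NMD TPM in replicate 1 and 28.7% in replicate 2, and the 100 highest 62.9% and 59.4%. Thus a small part of the annotated NMD transcripts carried most of the signal. The deposited lower credibility bound was at least 1 TPM in both libraries for 493 members. In 178 cases the NMD transcript was the transcript with the largest TPM of its gene in both libraries.

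Most genes held little NMD RNA and some held a great deal. The median share per gene was 2.93% of TPM in replicate 1 and 4.76% in replicate 2. By count it was 1.97% and 3.03%. The upper quartile lay at 27.1% and 28.8% of TPM, and at 21.2% and 24.04% of counts. In 360 genes the members held no reads in either library. A gene was called high where its NMD share was at least 20% by TPM and by expected count, with at least 50 NMD counts, each in both libraries. This held for 293 of 1629 genes, or 18%. At a share of at least 10% by both measures in both libraries, without a minimum of NMD counts, the number was 418, or 25.7%, and 96 genes reached 50% and 31 reached 80%.

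Between the libraries the share of a gene was similar in rank but not in size. Over the 552 genes with at least 50 NMD counts in both libraries, the count share in replicate 1 and replicate 2 had a Spearman rho of 0.769 and a Pearson r of 0.808, given as a description across genes, which share both libraries. The median difference between the libraries was 9.08 percentage points over these genes and 8.65 points over the 293 high genes. Neither library was generally the higher: the count share was higher in replicate 2 in 287 of the 552 genes and in 138 of the 293. By TPM it was higher in replicate 2 in 139 of the 293. Over all genes with members, without these minimums, 28 had an NMD share of TPM over 50% in 1 library and under 10% in the other.

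**Figure D2:**
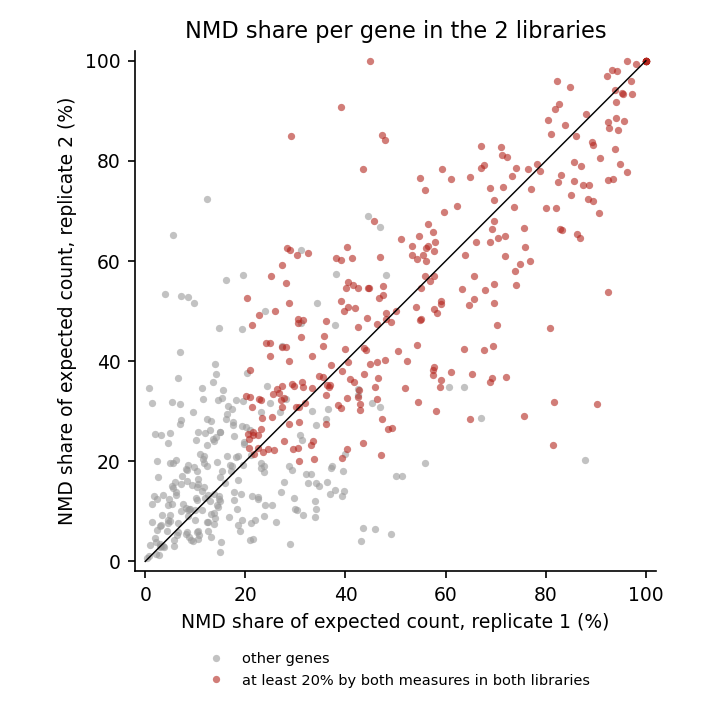
NMD share of the expected count of each gene in replicate 1 (horizontal) and replicate 2 (vertical), in percent, for the 552 genes with at least 50 NMD counts in both libraries; the line marks equal shares. The 293 high genes (red) spread on both sides of the line, with a median difference of 8.65 points.

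The genes nearest the count minimum show what the rule kept and left out. Just inside, Nceh1 (565 and 200 gene counts in replicates 1 and 2) had no NMD reads, Zfp688 (268 and 200) had NMD shares of 6.98% and 5.61% of TPM, and Msh5 (201 and 213) had 44.2% and 23.1%. Just outside, St6galnac4 (201 and 199) had 77.0% and 69.5% of TPM on NMD transcripts, and Coq8b and Cept1 had none. Genes on both sides of the minimum thus held high and zero shares.

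The annotated structure of the members was described from M21. The stop codon lay a median of 333 bases before the last exon junction (interquartile range 161 to 716), with a median of 3 junctions after it, and in 22 members the distance was under 50 bases. For the 845 members with reads the median was 395 bases (182.5 to 997.5), with 6 under 50. The distance itself is no finding, since a stop codon over 50 bases before a junction defines the type. The coding sequence of the members with reads had a median of 363 bases, against 1216.5 in their leading coding transcripts, a median of 34.7% of its length. It was the shorter in 718 of 836 members. Because the leading transcript was chosen by TPM, it can be a short coding model. Its coding sequence had 205 bases in Rbm20 and 522 in Ctnnb1, against 1520 in Rbm20-201 and 1821 in Ctnnb1-208.

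The place of the stop codon relative to the leading coding transcript could be classed for 2629 members. In 1269 (48.3%) it lay in a coding exon read in another frame, and 718 of these skipped at least 1 coding exon. In 548 (20.8%) it lay in an extra exon, and in 298 (11.3%) in an exon extended into an intron. In 360 (13.7%) it lay beyond the ends of the leading transcript. In 101 it was the same stop codon and in 53 it lay in an untranslated region of the leading transcript. Rbm20-201 and Ctnnb1-208 are among those beyond the ends, a class that depends on the leading transcript chosen. Of all NMD counts, members with a stop in another frame held 54.2% in replicate 1 and 55.4% in replicate 2. Members with an extra exon held 13.8% and 13.98%, and those with an intronic extension 7.63% and 7.46%. A changed frame in a shared exon was thus the commonest structure by number and by reads, and its share differed little between the libraries.

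Little of the sequence of a typical member was its own. The deposited effective lengths correspond to reads of 45 bases, so each member was cut into all of its 45-base windows. A window was its own where no other analysed transcript matched to M21 held it on the same strand. Sequences were those of M21, so unmatched transcripts were not compared and own windows can be overstated. Where lengths differ, windows follow M21: Glo1-201 had 1980 from 2024 bases, against 1935 bases as quantified. A transcript that differs by 1 junction has up to 44 such windows. The 845 members with reads had a median of 44 own windows, or 5.17% of their windows. Of these members 101 had none, 336 had 1 to 44 and 408 had more. An exon junction found in no other transcript of the gene matched to M21 was present in 701. Reads outside such windows can come from more than 1 transcript, and the estimate divided them.

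**Figure D3:**
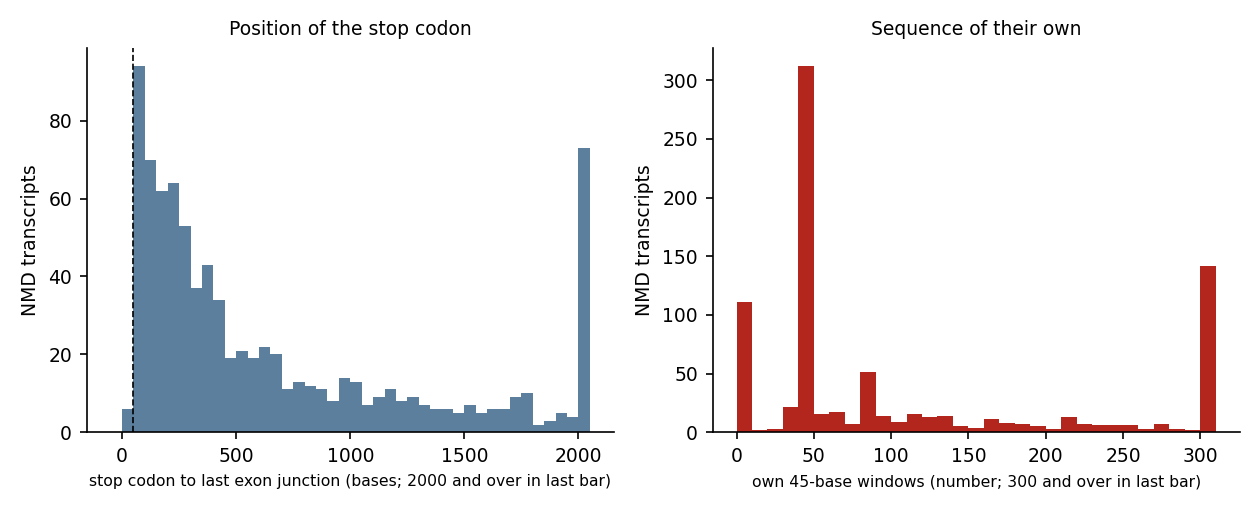
Number of the 845 NMD transcripts with at least 10 counts in both libraries, by the bases from stop codon to last exon junction (left; dashed line at 50 bases) and by the number of 45-base windows found in no other transcript (right). The distance has a median of 395 bases, and the windows cluster near 44, the number that 1 junction gives.

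The 293 high genes were alike in this. Their main member, the one with the most reads, had a median of 43 own windows of 1897, with none in 38 genes, 1 to 44 in 150 and more in 105, and an own junction in 243. Its stop codon lay in another frame of a coding exon in 168 genes, in an extra exon in 36 and in an intronic extension in 23. Of the 845 members with reads, 330 had an annotated model at the best support level, 1, and 281 at the lowest, 5. In the high genes the main member had level 1 in 128 genes and level 5 in 85. In 149 the deposited posterior SD of its count was under 10% of the count in both libraries. In 8 of the high genes no protein_coding transcript was among those analysed here, and in 7 more the coding transcripts held no reads. M21 lists at least 1 coding transcript that is not among those analysed here for 51 of the 293 genes (17.4%), against 233 of all 1629 (14.3%).

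At the top, 10 genes had all of their reads on NMD transcripts in both libraries, most of them without a coding transcript to compare with. Glo1, which encodes the methylglyoxal-clearing enzyme glyoxalase 1, had 6228 and 2686 NMD counts in replicates 1 and 2. Gtpbp4, a GTPase of ribosome assembly, had 3177 and 676, and Sass6, a centriole protein, had 1380.3 and 401. Mrpl32, a mitochondrial ribosomal protein, had 958 and 267, and Pggt1b, a protein prenyltransferase subunit, had 877 and 338. Eipr1 had 311 and 482. In these 6 genes the transcript quantified differs in length from the M21 model that gives the type (1935 and 2024 bases for Glo1-201), so they have no value where only transcripts of equal length are kept. Gtpbp4, Sass6, Mrpl32, Pggt1b and Eipr1 had no protein_coding transcript among those analysed here while M21 lists 1 to 3. The 1 coding transcript of Glo1 among those analysed here held no reads, and M21 lists 3 more that are not among them. The other 4 are the gene models Gm20716, Gm21972, Gm28043 and Gm28036. Gm28036 had 1 coding transcript, without reads, and the other 3 had none in either source. In all of these genes but Glo1 and Gm28036, no read could thus be assigned to a coding transcript. By the posterior means too, all of their signal lay on NMD transcripts. Their full share follows from which transcripts were quantified and how M21 types them, and is not a finding.

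The next 10 genes had a coding transcript to compare with. Ppia, which encodes cyclophilin A, had 98.9% of its TPM on NMD transcripts in replicate 1 and 99.8% in replicate 2. By count these were 98.1% and 99.3%. Ppia-201 held 5459.5 and 3289.9 counts, while the coding transcript of the gene held 0 and 3.01. Only 43 of the 702 windows of Ppia-201 were its own, and M21 lists 1 more coding transcript that is not among those analysed here. Emd, which encodes the nuclear membrane protein emerin, had 96.4% and 93.8% of TPM on its NMD transcripts, from 1438 and 1356 counts, against 88.3 and 113 counts on coding transcripts. Emd-206 had 42 own windows of 829. In both genes the libraries differed little beside the level of the share.

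Atp5f1, which encodes a mitochondrial ATP synthase subunit, had 91.5% and 88.6% of TPM and 94.1% and 88.6% of counts on NMD transcripts. Atp5f1-203, with the extra exon shown above, had support level 1 and 211 own windows of 1267, a larger part than in Ppia-201. As for Ppia, M21 lists 1 more coding transcript that is not among those analysed here. The posterior SD of Atp5f1-203 was 72.5 of 3784 counts in replicate 1 and 63.0 of 1546 in replicate 2. For Ppia-201 it was smaller, at 24.6 and 26.2 counts. Itgb2, an integrin chain of leukocytes, had 89.7% and 90.4% of TPM on NMD transcripts from 801 and 543 counts. Ciao2b, of cytosolic iron-sulfur protein assembly, had 97.5% and 94.1%. Pnpla2, the lipase that starts triglyceride breakdown, had 88.3% and 96.6%, and Tspan5, a tetraspanin, had 89.6% and 88.3%. Pnpla2-201 and Tspan5-207, the main members, had no window of their own. Commd2, Cnep1r1 and Jmjd4 completed the list, with NMD shares of TPM between 91.1% and 100% in the 2 libraries. By the deposited posterior mean TPM, the share was 88.8% and 76.8% in Jmjd4 and 81.3% and 76.8% in Tspan5. By that estimate Pnpla2 had 80.8% and 90.3% and Itgb2 86.5% and 81.4%, and the other genes of the list moved less.

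Ranked by its count in the library where it was lower, the leading member was Eef1b2-206, from the gene of a translation elongation factor subunit that recharges eEF1A with GTP. It held 17076 and 12851 expected counts, or 1609 and 2143 TPM, in replicates 1 and 2. Its gene had 93.3% and 65.0% of TPM on NMD transcripts (79.2% ± 20.05, SD, n = 2), so the share was high in both libraries and higher in replicate 1. The transcript is 482 bases long, has 43 own windows of 438 and support level 5.

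Ssb-203, from the gene of the La protein that binds the ends of RNA polymerase III transcripts, had 34287 counts in replicate 1 and 3135 in replicate 2, or 932 and 151 TPM. The NMD share of Ssb was 89.1% and 65.8% of TPM, and 86.9% and 64.6% of counts. The gene itself had 39444 and 4850.5 counts, so the level of the gene differed between the libraries more than the NMD share did. Qk, an RNA-binding regulator of splicing, had 11862 and 2496 NMD counts and shares of 93.5% and 85.7% of TPM. Qk-202 had 3595 own windows, the most of the 20 transcripts with the most reads, but its length in the tables, 4658 bases, differs from that in M21. Hnrnpdl-205 had 5106 and 1639.8 counts.

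Among these members, Mfsd2b-202 and Ermap-201 come from genes with roles in red cells and Tkt-205 from a gene of general metabolism. Mfsd2b is not in the erythroid list used below. Mfsd2b, the transporter that exports sphingosine 1-phosphate from red cells, had 4749 and 3702 counts on Mfsd2b-202, with NMD shares of 76.8% and 49.9% of TPM and 82.0% and 70.5% of counts. Over coding and NMD transcripts alone its mean share of TPM was 96.0% in place of 63.4%. Ermap, a red cell membrane protein, had 34.3% and 35.8% of TPM and 34.7% and 37.1% of counts on NMD transcripts (35.0% ± 1.07 of TPM, SD, n = 2). Ermap-201 held 3549 and 1678 counts and had 42 own windows of 4334. Tkt, the transketolase of the pentose phosphate pathway, had 65.7% and 78.1% of TPM but 27.2% and 35.1% of counts on Tkt-205. That transcript is 465 bases long, and TPM, unlike the count, divides by length.

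Rps19, a small-subunit ribosomal protein mutated in the red cell aplasia Diamond-Blackfan anemia, had 2609 and 2771 counts on Rps19-205, the member with the extra exon shown above. Its NMD share was 56.9% and 45.8% of TPM and 63.3% and 54.5% of counts. Coding transcripts of Rps19 held 1442 and 2275 counts. In Rps19 the NMD transcripts thus held more counts than the coding ones in both libraries. Smc1a, a cohesin subunit, had 7942 and 1766 counts on Smc1a-206, 58.5% and 47.0% of TPM and 40.3% and 32.6% of counts. Ctnnb1, which encodes beta-catenin, had 36.3% and 51.0% of TPM and 63.9% and 61.2% of counts on NMD transcripts.

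The share also differed between the libraries in other genes whose members had many reads. Pfn1, the actin-binding protein profilin 1, had NMD shares of 31.3% and 63.8% of TPM, with 2006 and 4429 counts on Pfn1-204. Tmem234 had 37.6% and 86.1% of TPM and 39.2% and 90.7% of counts. It has 13 members, the most of any gene, and its main one, Tmem234-210, had no window of its own. Rnf10, a ubiquitin ligase, had 23.4% and 46.9% of TPM, Ddx5, an RNA helicase, 27.4% and 43.9%, and Ccnt1, the cyclin of the elongation factor P-TEFb, 41.9% and 69.5%. In these 5 genes the share was higher in replicate 2, whereas in Eef1b2, Mfsd2b and Ssb, described above, it was higher in replicate 1. Serf2, Ppp1cc and Rbm20 stayed closer, at 95.9% and 96.9%, 93.3% and 92.1%, and 64.9% and 57.1% of TPM. Ppp1cc-209 had no window of its own, and each of its 513 windows was also found in another gene. Windows found in no other gene numbered 137 of 651 in Serf2-205, 270 of 549 in Rps19-205, 286 of 702 in Ppia-201 and 394 of 835 in Ddx5-205. In others, such as Ssb-203 (1519 of 1519), no window was shared with another gene.

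**Figure D4:**
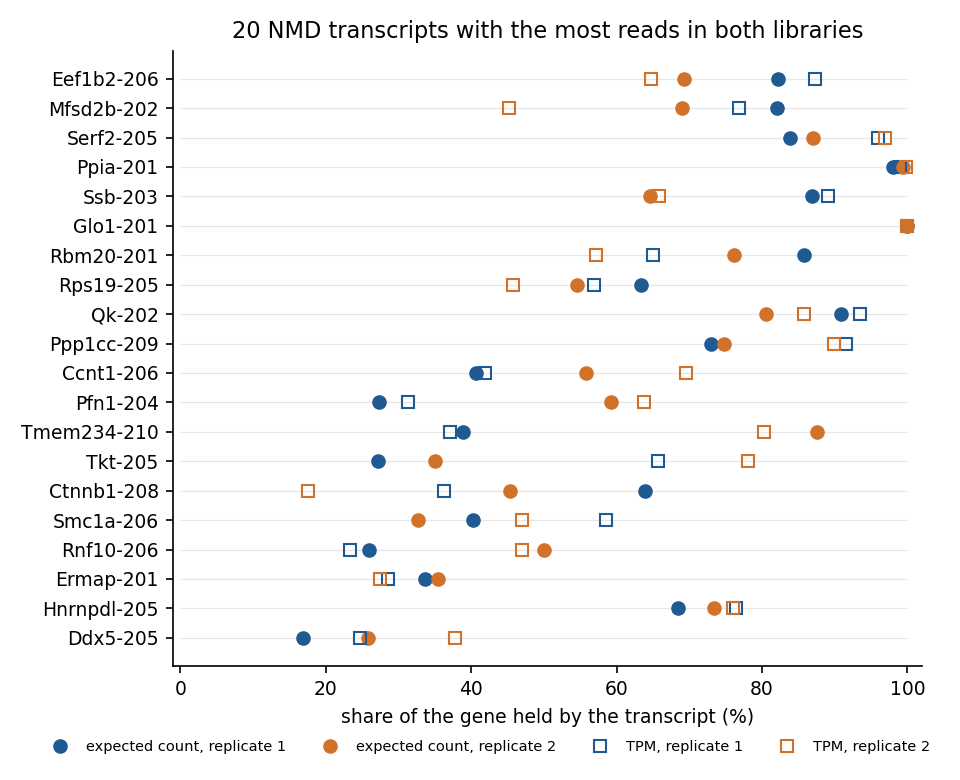
Share of its gene, in percent, held by each of the 20 NMD transcripts with the most reads in both libraries, by expected count (filled circles) and TPM (open squares) in replicates 1 (blue) and 2 (orange). Ppia-201 and Glo1-201 lie close to 100% by every measure, and Tmem234-210 and Pfn1-204 lie further right in replicate 2.

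Genes of splicing proteins were taken as 3 lists, chosen with earlier results of these data known. Of 8 SR protein genes with members, 1 had an NMD share of at least 10% by both measures in both libraries, of 10 hnRNP genes 4, and of 27 genes of other splicing regulators and kinases 9, set beside the 25.7% over all 1629 genes. The numbers of high genes were 0, 4 and 6, set beside 18% over all. The median over genes of the mean TPM share was 17.1% for SR genes, 23.3% for hnRNP genes and 11.5% for the other splicing genes, against 6.01% over all genes with members. The SR median rested on replicate 1: it was 13.6% there and 3.52% in replicate 2, where all genes had 4.76%. The hnRNP median was 12.6% and 18.7%, and that of the other splicing genes 7.70% and 11.1%. These are descriptions of the lists and no list was tested.

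SR proteins bind exonic enhancers, and Srsf2 was the SR gene that reached 10% in both libraries. It had 4905 NMD counts in replicate 1 and 723 in replicate 2, 76.2% and 37.7% of TPM and 51.3% and 17.0% of counts. Its member Srsf2-204 had no window of its own. Srsf1 had 38.3% and 8.34% of TPM, Tra2b, an SR-like splicing activator, 42.6% and 4.99%, and Srsf3 19.5% and 2.05%. These 4 shares were higher in replicate 1. Srsf6 had the opposite order, with 138 and 1308 NMD counts and 7.70% and 69.4% of TPM. Srsf4, Srsf5 and Srsf11 had 0.84% of TPM or less in both libraries. Each of the first 5 SR shares of TPM thus differed between the libraries by more than the lower of its 2 values.

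Among the hnRNP genes, which encode RNA-binding proteins that often repress exons, Hnrnpdl was nearly equal in the libraries. It had 5129 and 1666 NMD counts, 76.6% and 76.8% of TPM (76.7% ± 0.169, SD, n = 2) and 68.8% and 74.6% of counts, and Hnrnpdl-205 had 190 own windows of 1433. Syncrip had 41.2% and 51.1% of TPM and 37.0% and 39.2% of counts. Its member Syncrip-203, whose junction is shown above, had 42 own windows of 1881. Ptbp1, the polypyrimidine tract-binding protein, had 42.5% and 28.8% of TPM, and Hnrnpd 69.7% and 44.9%. The Hnrnpd reads were divided differently in each library: Hnrnpd-208 held 5159 counts in replicate 1 and none in replicate 2, Hnrnpd-209 none and 305, Hnrnpd-205 none and 261, and Hnrnpd-204 held 1073 and 179. Hnrnph3 had 166 and 879 NMD counts, 5.88% and 67.8% of TPM. Hnrnpl, Hnrnpll and Hnrnpk had lower shares, between 0 and 13.4% of TPM, and Hnrnpr and Ptbp3 had no NMD reads.

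Of the other splicing genes, 6 were high. Luc7l2, which is related to a U1 snRNP component, had 31.5% and 36.1% of TPM and 39.3% and 38.0% of counts on NMD transcripts, from 6429 and 1427 counts. Clk1, a kinase of SR proteins, had 34.5% and 25.6% of TPM and 50.6% and 42.0% of counts. With coding and NMD transcripts alone as denominator, its mean share of TPM was 89.8% in place of 30.0%, and of counts 88.3% in place of 46.3%. Clk1-211, its main member, held 4958 and 1015 counts and skipped 2 coding exons. U2af1l4, a paralog of the small U2AF subunit, had 39.2% and 58.6% of TPM, but 25.2% and 38.1% of posterior mean TPM. Ddx5 had 27.4% and 43.9%, Tia1, which binds uridine-rich RNA, 43.5% and 22.7%, and Snrpa1, a U2 snRNP protein, 26.9% and 40.7%. Luc7l3, Rbm25 and Rbm5 passed 10% but not 20% by every measure. With the narrower denominator the mean TPM share was 57.9% in place of 33.8% for Luc7l2, 58.7% in place of 27.7% for Rbm25 and 63.5% in place of 33.1% for Tia1. Tial1 (36.3% and 4.55% of TPM), Clk2 (36.9% and 3.76%) and Tardbp (26.9% and 3.83%) had high shares in replicate 1 alone. Srrm1 (0 and 18.2% of TPM) and Sf3b1 (0 and 11.1%) had NMD reads in replicate 2 alone. Their shares of counts there were lower, at 7.64% and 2.03%.

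**Figure D5:**
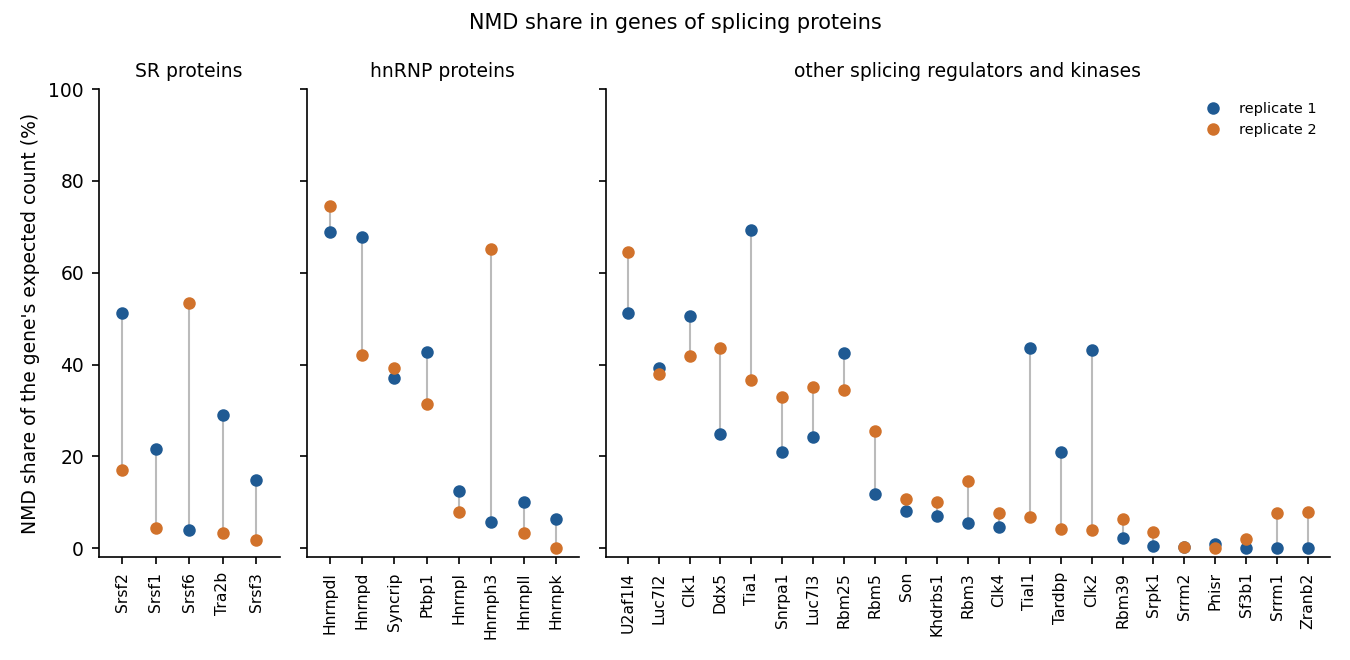
NMD share of the expected count, in percent, in replicate 1 (blue) and replicate 2 (orange) for splicing genes with at least 50 NMD counts in at least 1 library; grey lines join the values of a gene. Hnrnpdl, Syncrip and Luc7l2 are close in the libraries, whereas Srsf6 and Hnrnph3 are high in replicate 2 and Tial1 and Clk2 in replicate 1.

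In the other lists the genes at 10% or more by both measures in both libraries were again set beside 25.7% over all genes. Of 8 ribosomal protein genes with members, Rps19 alone reached 10% in both libraries, and 4 had no NMD reads. Of 8 translation factor genes, Eef1b2 and Eif4a2 did so, and Eif4a2, an RNA helicase of initiation, had 18.5% and 14.7% of TPM, with a mean of 32.9% in place of 16.6% over coding and NMD transcripts alone. Of 4 polyamine genes, 2 were high. Sms, spermine synthase, had 73.8% and 43.97% of TPM and 55.6% and 61.1% of counts, and Smox, spermine oxidase, had 28.5% and 50.1% of TPM and 36.0% and 47.9% of counts. Azin1, which blocks the inhibitor of ornithine decarboxylase, had 4.73% and 20.5% of TPM. Of 3 erythroid genes with members, Ermap was high. Ank1, the red cell ankyrin, had 0.13% and 0.44% of TPM, and Slc25a37, the mitochondrial iron importer, had none.

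Of 21 listed genes of the NMD pathway and the exon junction complex at the count minimum, 3 had a member, beside 22.9% of all genes at the minimum, 8 of 73 ribosomal protein genes and 3 of 45 erythroid genes. Smg5 had 10.6 and 2.43 NMD counts, and Smg1, the kinase of the pathway, had none. Smg6, its endonuclease, had no NMD reads in replicate 1 and 405 in replicate 2, where they made 37.7% of its TPM. No gene of this list reached 10% in both libraries.

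The 10 largest differences in count share between the libraries included genes with an NMD expected count at or near 0 in 1 library. Mier3 had 0.11 NMD counts in replicate 1 and 1105 in replicate 2, 0 and 81.4% of TPM, while its coding transcripts held 3018 and 239.6 counts. Piezo1, a mechanically gated channel of red cells, had 4509.7 and 0 NMD counts, 60.6% and 0 of TPM, with 6980.5 and 6254 counts in the gene. Piezo1-204, with 41 own windows of 6273, held nearly all of the NMD counts of replicate 1. Rhbdd2, Cntrob, Supv3l1 and Rsl24d1 had an NMD expected count of 0 in replicate 1 and between 35.4% and 78.6% of TPM in replicate 2. Cdk5rap3 had 27.2% and 85.2%. Akr1b10 (68.8% and 0.45% of TPM), Hras (92.9% and 19.98%) and Lancl2 (75.1% and 12.1%) were higher in replicate 1. All but Cdk5rap3 had over 20% of TPM on NMD transcripts in 1 library only. The deposited posterior mean counts were less extreme: 239 in replicate 1 for Mier3 (7.91% of the gene), 189 in replicate 2 for Piezo1 (3.01%), and 42.1 and 30.1 in replicate 1 for Supv3l1 and Rhbdd2 (13.2% and 14.6%). A count of 0 in these genes is thus not shown to be absence of the transcript.

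Across members, the level in replicate 2 relative to replicate 1 was like that of other transcripts. The median log2 ratio of TPM (plus 0.1) was 0.28 over the 845 members with reads, 0.14 over 2709 coding transcripts of the same genes and 0.24 over all 22156 transcripts with at least 10 counts in both libraries. At least 2-fold higher in replicate 2 were 230 members (27.2%), beside 24.3% of all transcripts, and at least 2-fold lower 130 (15.4%), beside 14.2%. The ratio moved with GC content. Its median was -0.71 over 150 members with 40 to 45% GC, 0.44 over 231 with 50 to 55% and 1.43 over 37 with 60% or more (Spearman rho 0.473, Pearson r 0.446 across the 845 members, as a description over transcripts of the same 2 libraries).

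For the 5 SR genes with at least 50 NMD counts in a library, the GC content of the main member was 41.6% in Srsf2, 45.4% in Srsf1, 44.9% in Tra2b and 42.6% in Srsf3, the 4 with higher shares in replicate 1, and 51.7% in Srsf6. Their leading coding transcripts had 49.97%, 42.9%, 41.8%, 39.99% and 42.8%, in the same order. Over 837 members, the difference in share between the libraries and the difference in GC between the member and its leading coding transcript had a Spearman rho of 0.158. Whether GC content has a part in the shares was not tested.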

How the data were processed

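RNA-seq was summarised from 2 libraries, 1 gene and 1 transcript table each. Per the labels and file lists, the authors used mm10 and the GENCODE M4 annotation. Aligner and counting program were not given in the sources used here. Deposited values include expected counts (estimated reads, unscaled) and TPM (scaled for length), as the authors computed them per the file headers. The authors also deposited posterior means and SDs of counts, and posterior mean TPM with credibility bounds of unstated level, treated as a score. A percent of each gene's TPM per transcript was deposited too, and shares were recomputed here.

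Transcript types, stop codons, junctions and sequences were those of GENCODE M21 (also mm10), joined by identifier: 101510 of 103639 transcripts matched. Of the 2640 NMD transcripts, 2494 had equal length in both and 23 lie in another gene in M21, so types may differ from those of the release used for quantification. A transcript's share is its sum over that of all transcripts of the gene. Depth was 26149725 and 14149299 estimated reads, with a floor (3 counts) of 0.115 and 0.212 CPM. Expected counts that split reads among transcripts carry more error than the depth shows.

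With 1 group of 2 libraries there was no test: values are given per library or as mean and SD. The members and gene lists were chosen with earlier results of these data known. Genes were named by fixed rules: the 20 with the highest lowest share, the 20 transcripts with the most reads in the lower library, listed genes at 10% or more, the 10 largest differences between libraries, and 6 next to the count minimum; other listed genes are named with their values to complete a list, and were chosen after these were seen. Share sums were tested on simulated data. Alternatives were other minimums, denominators and estimates, and each library alone. Python 3.11.15, pandas 2.3.3, numpy 2.4.6 and matplotlib 3.10.9 were used.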

Additional observations from a re-analysis of the deposited data

How the results depend on the processing

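Each library alone gave an NMD share of TPM of 17.4 to 19.2%, of counts of 13.2 to 13.8%, 380 to 408 high genes, a median share per gene of 2.93 to 4.76% and 1127 to 1128 members with at least 10 counts. A gene minimum of 1000 counts gave a count share of 12.5%, 89 high genes and a median share of 4.63%. It left 323 members with reads, with a median log2 ratio between libraries of 0.13. That minimum also leaves fewer genes with members, so the 89 cannot be read as a lower share of high genes. Members of equal length in both annotations gave a count share of 13.0%. With coding and NMD transcripts alone as denominator the shares were 24.5% of TPM and 15.6% of counts, with a median of 9.60%. Posterior mean TPM gave a median of 7.70%. High at 50% left 96 genes. Without a count filter the median log2 ratio was 0, but 931 of the 2640 members then had no reads in either library. Their ratio is 0 by construction, so this value says nothing about members with reads. High genes by TPM alone numbered 353, by expected count alone 327, and with at least 200 NMD counts 212. No paired analysis was possible because there was 1 group. Among 53 named genes the coding and NMD denominator moved 26 of the shares by TPM or count beyond the spread of the libraries, by up to 59.8 points (Clk1), posterior mean TPM moved 8 and posterior mean counts 7. Of the 845 members with reads, 101 had no window of their own, so no read can be assigned to them alone at any depth.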
